A study of Homo sapiens with 4 samples.

Results

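Cytosines in binding motifs near 9 circadian clock genes were collected from BisChIP-seq tables of HEK-293T cells, a human embryonic kidney cell line. BisChIP-seq treats immunoprecipitated chromatin DNA with bisulfite, so that each read of a cytosine is scored as methylated or converted. A cytosine was taken when the tables named RORA, RORB, CRY1, HLF, NFIL3, NPAS2, PER3, TEF or BHLHE40 as its nearest gene, whatever its distance. This gave 14 distinct sites of 15177 in the 6 tables, with at least 1 site at each of the 9 genes. The genes were chosen with earlier results of these data known, so that coverage is not a result. For GR, the glucocorticoid receptor, the cells carried the vectors GR-pCMV14 and DNMT3A-pLX304 and received 4 nM dexamethasone, a GR ligand, after 24 h. For BMAL1-CLOCK they carried BMAL1-pCMV14, CLOCK-pCMV14 and DNMT3A-pLX304 and received no dexamethasone. Each factor had 1 library precipitated with anti-Flag antibody and 1 control library with IgG. DNMT3A, a DNA methyltransferase, was therefore overexpressed in all 4 libraries, controls included, and the factors were Flag-tagged and overexpressed rather than endogenous. There were no replicates, so every value belongs to 1 library and no error between cultures can be given. Intervals and limits cover counting error only. The tables hold DNA reads and no expression, so the identity of the cells was not checked here.

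The mammalian clock is a feedback loop in which BMAL1 and CLOCK pair, bind the E-box CACGTG and activate their own repressors, the PER and CRY genes. A further loop runs through the nuclear receptors RORA and RORB, which act on BMAL1, and an output loop runs through the bZIP factors HLF, TEF and NFIL3, which bind D-boxes. Glucocorticoids are known to shift the clocks of peripheral tissues, and GR binds half-sites of the sequence AGAACA, whose other strand reads TGTTCT.

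The hexamers that were scored are shown because the position of the measured cytosine, in capitals, sets what a methylation level refers to.
GR half-site, first table: agaaCa
GR half-site, second table: tgttCt
E-box, BMAL1-CLOCK tables: Cacgtg
In the half-site tables the fifth base was scored, and in the E-box the first. The hexamer of the second table is taken from the table's name, since its sequence column reads AGAACA, on both strands, as in the first table. None of these cytosines stands before a G, so all values below are levels of non-CpG methylation, and the inner CpG of the E-box is not among them. No bisulfite conversion rate is given in the sources used here. A cytosine that failed to convert therefore cannot be told from a methylated one.

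No read of any clock gene site was methylated in either anti-Flag library. In the GR library the 7 half-sites, at 6 genes, had 0 methylated reads of 31. The limit, taken as 3 counts over the total, is 9.68%, and the two-sided exact 95% interval ends at 11.2%. In the BMAL1-CLOCK library the 3 E-boxes, at 3 genes, had 0 of 12, for which the limit is 25.0% and the interval ends at 26.5%. The GR IgG control held 4 half-sites at 4 genes with 2 of 17 reads methylated, a level of 11.8% (exact 95% interval 1.46 to 36.4%). No clock gene site was listed for the BMAL1-CLOCK IgG control, so the E-boxes have no background of their own. Its table has 2 sites in all, the 2 strands of the same hexamer at 1 gene, with 164 of 164 reads methylated. Over all sites the pooled level was 2.21% in the GR library, 7.13% in its IgG control and 1.23% in the BMAL1-CLOCK library. The GR level includes sites with up to 3393 reads, and the mean of its site levels was 1.55%. Each of these levels lay within what the clock gene reads of the same library allow, so no difference from the rest of the library was detectable at this depth.

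The number of sites with a methylated read was read against each whole library. In the GR library none of the 7 clock gene half-sites had one, where 3.07% of 8107 sites did. In the BMAL1-CLOCK library it was none of 3 E-boxes, where 5.56% of 4353 did. In the IgG control it was 2 of 4, where 27.6% of 2715 did. At these shares a count of 0 among 7 or 3 sites is near the background and is not a result about clock genes. Each site was also tested against the pooled level of its library and motif by a one-sided exact binomial test, with Benjamini-Hochberg adjustment over every site of the table. None of the 14 passed, against 0.652% of all 15177 sites, a share that was 1.15% in the GR library, 0.147% in its IgG control and 0.0459% in the BMAL1-CLOCK library. None had an unadjusted p under 0.05 either, where 2.17% of all sites did. The smallest unadjusted p was 0.270, at the RORB site of the IgG control. With 4 reads at an E-box, 3 methylated reads would have been needed to pass, with the rest of the table kept. At a TGTTCT site of the GR library with 4 or 5 reads the number was also 3. In the GR IgG control more was needed, at an AGAACA site 4 of 4 or 5 of 5 reads, so a site there with 3 of 4 methylated reads would not have passed. A level of a few percent at a single site was out of reach in every library.

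Clock gene sites were read as thinly as most others. Of the 14, 10 had 4 reads, the minimum the authors kept (71.4%, where 72.2% of all sites did), and 4 had 5 reads. For a single site with 0 of 4 methylated reads the limit of 3 counts is a level of 75.0%, and with 0 of 5 it is 60.0%. The two-sided exact 95% intervals of such sites end lower, at 60.2% and 52.2%. Of 8107 sites in the GR library and 2715 in its IgG control, only 77 positions were read in both. No clock gene position was among these 77, of which 9.09% differed by Fisher's exact test after adjustment. Shared positions were few over all sites, so their absence here is not a result about clock genes. The libraries could not be compared at one clock gene cytosine. The cytosine on the other strand of the same hexamer was listed for none of the 14, against 0.493% of all sites in the GR library, 2.06% in its IgG control and 2.80% in the BMAL1-CLOCK library.

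The E-boxes lay at CRY1, RORA and RORB. CRY1 is a core repressor of BMAL1-CLOCK and a classical target of the pair. Its E-box cytosine, at position 106026990 on the minus strand of chromosome 12 (hg18, as all site positions here), had 0 of 4 reads methylated and stood 15262 bp from the nearest TSS. RORA activates transcription at ROR elements, among them those of the BMAL1 gene. Its E-box, at position 58666400 on the plus strand of chromosome 15, also had 0 of 4 reads methylated and was the site nearest to a TSS of all 14, at 5599 bp. RORB, the related receptor of retina and brain, had an E-box at position 75867627 on the minus strand of chromosome 9. It had 0 of 4 reads methylated and was the farthest of all, at 434444 bp. The other 6 genes had no E-box in the table of sites with 4 or more reads, and neither did BMAL1 (listed as ARNTL), CLOCK, PER1 or PER2.

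In the GR library the half-sites lay at NPAS2, PER3, BHLHE40, RORB, TEF and NFIL3. NPAS2 is the paralog of CLOCK and can take its place beside BMAL1. Its TGTTCT site, at position 100888926 of chromosome 2, minus strand, had 0 of 4 reads methylated at 68770 bp. PER3 belongs to the repressor arm with CRY1. It held the one AGAACA site of this library among the 9 genes, at position 7794488 of chromosome 1, minus strand, with 0 of 4 reads methylated at 27188 bp. BHLHE40, a repressor that competes for E-boxes, had a TGTTCT site at position 4975259 of chromosome 3, minus strand, with 0 of 4 reads methylated at 20948 bp. These sites of the E-box-binding and repressor genes all had the minimum of 4 reads and no methylated read. In the whole GR library 79.5% of sites had 4 reads and 3.07% had a methylated read, so this is not a trait of these genes.

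Of the D-box factors, TEF, an activator, had the half-site nearest to a TSS among those of the 9 genes in any library. It lay at position 40102002 of chromosome 22, plus strand, with 0 of 4 reads methylated at 5906 bp. NFIL3, which represses through D-boxes, was the one gene with 2 half-sites in the same library. Its sites at positions 93250482 and 93424679 of chromosome 9, both minus strand, had 0 of 5 reads methylated each, at 24517 and 198714 bp. The RORB half-site, at position 76435742 of chromosome 9, minus strand, had 0 of 5 reads methylated at 15456 bp. The 3 half-sites with 5 reads were thus at NFIL3 and RORB, and the other 4 had 4 reads each.

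Both methylated reads at clock genes came from the IgG control, and both from AGAACA. The site of HLF, a D-box activator related to TEF, lay at position 50636401 of chromosome 17, minus strand, and was methylated in 1 of 5 reads (20.0%, exact 95% interval 0.505 to 71.6%) at 60918 bp. That of RORB, at position 76210063 of chromosome 9, minus strand, was methylated in 1 of 4 reads (25.0%, interval 0.631 to 80.6%) at 92008 bp. Neither stood above the pooled level of 7.57% for this table in the exact binomial test (unadjusted p = 0.325 and 0.270, adjusted p = 1.00 for both). The 2 TGTTCT sites of the control had no methylated read. They lay at CRY1, position 105989420 of chromosome 12, minus strand, with 0 of 4 reads at 22308 bp, and at RORA, position 59343338 of chromosome 15, plus strand, with 0 of 4 reads at 34544 bp. In the whole control 29.7% of AGAACA and 20.5% of TGTTCT sites had a methylated read, so the clock gene sites hold too few reads to set the motifs apart.

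**Figure D1:**
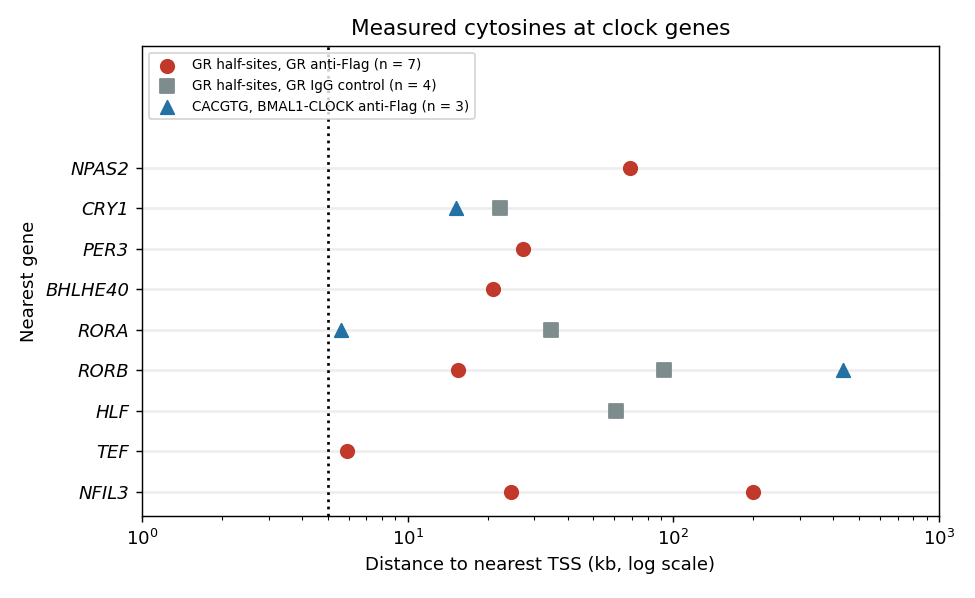
Distance to the nearest TSS (kb, log scale) of each of the 14 cytosines, by gene from the positive arm and repressors at the top to the D-box factors at the bottom. Symbols mark library and motif and the dotted line marks 5 kb. No site lies within 5 kb, and the E-boxes include both the nearest site (RORA, 5599 bp) and the farthest (RORB, 434444 bp).

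The E-boxes of clock genes were nearer to the TSS than the GR half-sites by their medians, but not as a group. The 3 E-boxes lay at 5599, 15262 and 434444 bp, with a median of 15262 bp. The 7 half-sites of the GR library ran from 5906 to 198714 bp, with a median of 24517 bp, which was 9255 bp farther. The groups overlapped. In 13 of 21 pairs of 1 E-box and 1 half-site the E-box was the nearer (61.9%). The means had the opposite order, at 151768 bp for E-boxes and 51642.7 bp for half-sites, since the RORB E-box exceeds every half-site. Over all sites the order was also the opposite, with medians of 63221 bp for the 4353 E-boxes and 42157 bp for the 8107 half-sites, and the E-box nearer in 43.5% of pairs. No p is given, because sites of 1 gene share their source and each motif was listed for 1 factor, so motif and library cannot be told apart. With the wider list of 34 clock genes described below, the medians turned to 70075 bp for E-boxes and 24517 bp for half-sites.

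Within a gene the order could be read at 3 genes. At CRY1 the E-box was 7046 bp nearer to a TSS than the half-site of the IgG control, at 15262 against 22308 bp. At RORA it was 28945 bp nearer, at 5599 against 34544 bp. At RORB the E-box was the farther by 418988 bp from the half-site of the GR library and by 342436 bp from that of the IgG control. The E-box was thus the nearer at 2 of 3 genes by the listed distances. As given below, the sites of CRY1 and the E-box and IgG half-site of RORB were measured from the same start, while the sites of RORA and the GR half-site of RORB were measured from different ones. RORB was the one gene where an anti-Flag half-site could be set beside an E-box.

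**Figure D2:**
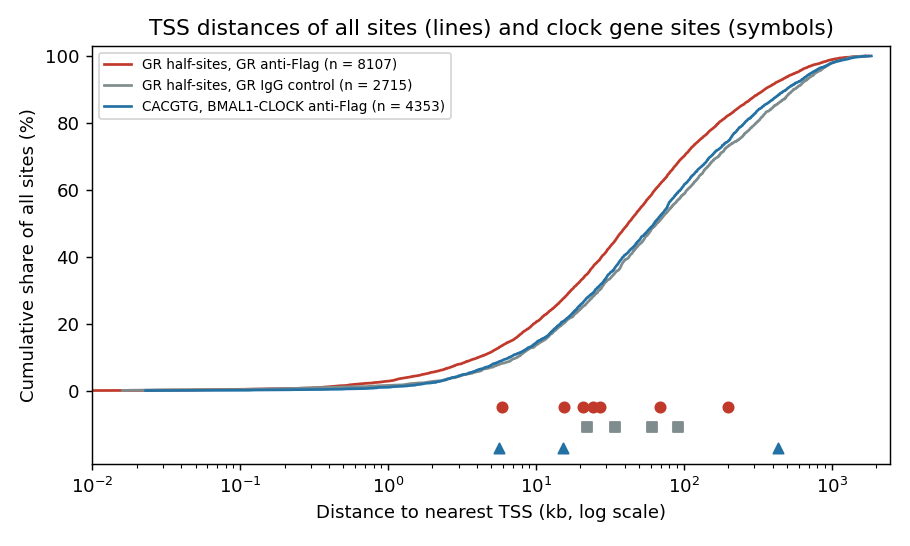
Cumulative share of all sites (lines) against distance to the nearest TSS (kb, log scale) for 3 libraries, with clock gene sites of the same library as symbols below. The median of all E-boxes (63221 bp) lies farther out than that of GR half-sites (42157 bp), while the clock gene symbols of the libraries overlap.

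None of the 14 sites lay within 5 kb of a TSS, where 9.63% of all sites did. By library that share was 11.6% for GR, 6.96% for its IgG control and 7.63% for BMAL1-CLOCK. Within 100 kb lay 6 of 7 half-sites of the GR library (70.0% of all its sites), 4 of 4 of the IgG control (58.7%) and 2 of 3 E-boxes (61.3%). The NFIL3 site at 198714 bp and the RORB E-box lay beyond.

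The distances carry no sign, but where 2 sites of a gene were measured from the same start, that start is fixed by both. This was so, to within 1 bp, for 3 of the 4 clock genes with 2 or more sites and for 90.8% of 2937 genes with 2 or more sites in the tables. For CRY1 both distances met at position 106011728 of chromosome 12. CRY1 lies on the minus strand by RefSeq, so its E-box was 15262 bp upstream of that start and the IgG half-site 22308 bp downstream. For NFIL3, also on the minus strand, both distances met at position 93225965 of chromosome 9, and both GR half-sites lay upstream. For RORB, on the plus strand, the E-box and the IgG half-site met at position 76302071 and both lay upstream, at 434444 and 92008 bp. The GR half-site of RORB was 133671 bp downstream of that position, farther than its listed 15456 bp, so it was measured from another start. The 2 starts its distance allows lie 118215 and 149127 bp from the shared one. RefSeq (GRCh38.p14) lists 2 RORB starts 118199 bp apart. That is another build, and whether these are the same starts was not tested. The 2 RORA distances shared no start. Whether a site is exonic or intronic is not given, since no hg18 annotation was used here.

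Of the measured cytosines, 11 of 14 lay on the minus strand of the reference, where 50.5% of all sites did. They were 6 of 7 in the GR library, 3 of 4 in the IgG control and 2 of 3 for BMAL1-CLOCK, and no test was run on this count. The half-site tables also print part of the hexamers in lower case, which in genome sequence usually marks repeats. Lower case was used for 4 of 7 half-sites of the GR library, at BHLHE40, NFIL3 and RORB, where 43.9% of all its sites were so written. In the IgG control it was used for 4 of 4, where 62.6% were. The E-box table has a single spelling and gives no such mark.

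The promoters of the clock genes were searched for the same motifs, because the tables hold no site there. RefSeq promoters run from 250 bases before to 50 after a start, and 14 of them belong to the 9 genes. CACGTG, which reads alike on both strands, was found in 3 of the 14, at 2 genes, and in 7.26% of 35116 promoters. AGAACA or TGTTCT, which are each other's complement, stood in 1 of the 14 and in 14.8% of all. The 4 matches are shown with 30 bases each (plus strand of GRCh38.p14, motif in capitals) as promoter motifs that the tables do not list.
TEF, upstream start, E-box at chr22:41367248-41367277: gcgcgacagctcCACGTGctgcagctggcg
TEF, downstream start, E-box at chr22:41381737-41381766: cacctggccccgCACGTGtctatcttatcc
BHLHE40, E-box at chr3:4979187-4979216: tccaaCACGTGagactcatgtgatgaagcc
BHLHE40, half-site at chr3:4979272-4979301: gagtcacagggtAGAACAcgtagctccaac
The E-boxes begin 195 and 193 bp before the TEF starts and 245 bp before that of BHLHE40, and the BHLHE40 half-site begins 153 bp before it. The sites listed at these genes, TGTTCT at 5906 bp for TEF and at 20948 bp for BHLHE40, lie outside these windows. A match is a description of the letters, and a motif without 4 reads in a library would not be listed whether or not the factor bound it.

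Across libraries, 6 of the 9 genes had sites in 1 library, as did 71.1% of 7083 gene names in the tables. CRY1 and RORA had sites in 2 libraries (21.2% of names), in both cases BMAL1-CLOCK and the GR IgG control. RORB had sites in the GR library, its control and BMAL1-CLOCK (7.69% of names). Its 3 sites were 342436 bp apart between E-box and IgG half-site and 225679 bp apart between IgG and GR half-sites. RORB had the most sites, and 49 other genes had the same number in every table, a summed difference of 0. The first of these by alphabet was ADAMTS6, a secreted metalloprotease, with 0 of 4, 0 of 6 and 0 of 4 reads methylated in the GR, IgG and BMAL1-CLOCK libraries. The next by that order are listed under sequence identifiers and are not named.

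The wider list of 34 clock genes had 14 with a site, the 9 above and 5 of the other 25. The counts that follow include the reads of the 9 genes given above. In the GR library 9 of the 14 genes had 0 of 49 reads methylated over 11 sites, a limit of 6.12%. In the BMAL1-CLOCK library 6 of them had 0 of 29 over 7 sites, a limit of 10.3%. The pooled levels of all sites, 2.21% and 1.23%, lay below these limits. In the IgG control 4 of 33 reads were methylated over 8 sites at 6 genes (12.1%, exact 95% interval 3.40 to 28.2%). The level of all its sites, 7.13%, lay within that interval. No site of the wider list passed the exact binomial test, where 0.652% of all 15177 sites did. None had an unadjusted p under 0.05 in that test, where 2.17% of all sites did.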

How the data were processed

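Reads of 2 sequencing runs were merged per library by the authors and aligned to hg18 using Bismark. They excluded the overlap of read pairs, removed PCR duplicates using SAMtools, and retained cytosines read 4 or more times. Tool versions: not given in the sources used here. As deposited, the 6 tables hold raw counts (methylated and total reads of each cytosine, not normalized), the unsigned distance to the nearest TSS and its gene. Repeated rows with identical counts were dropped (the PER3 site stood 4 times, the NPAS2 site 2 times). Motifs were taken from table names. From the counts, pooled levels were computed with exact Clopper-Pearson 95% intervals, or, with no methylated read, with a limit of 3 counts over the total. The binomial test of each site was one-sided and exact, took the pooled level of its table as background, and was adjusted by Benjamini-Hochberg at 0.05 over the table. It was tried on simulated reads only with fully methylated sites over a background below the level of the IgG control. Partial levels were not tried. For positions shared by GR and its IgG control, a two-sided Fisher's exact test was used. Depth outside the listed sites is unknown. All sites of the 9 genes are named, as are genes with site numbers most like those of RORB and listed clock genes with a site, of which 1 is not reported here. Members and lists were chosen with earlier results of these data known. Promoters and gene strands came from RefSeq (GRCh38.p14), and no position was converted between builds. Software was Python 3.11.15 with pandas 2.3.3, scipy 1.17.1 and matplotlib 3.10.9.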

Additional observations from a re-analysis of the deposited data

How the results depend on the processing

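The order of TSS distances depended on the gene list. The median E-box distance minus that of GR half-sites was -9255 bp for the 9 genes and 45558 bp with the wider list of clock genes. Without RORB, the gene with the most sites, it was -15422 bp. It stayed between -8806 and -12302 bp with 1 value per gene, with close sites counted once, with sites within 100 kb, with repeated rows counted and with IgG half-sites added. The pooled levels stayed within their limits or intervals under every alternative that gave a value, and no binomial test made a call. With a fixed background of 1 percent, 2 of the 14 sites had an unadjusted p under 0.05 in the exact binomial test and none after adjustment. The IgG level was 8.33% without the HLF site, the one with the most reads. Coverage minimums of 8 and 10 reads left no clock gene site, so these could not be run. No paired analysis was possible because each group is 1 library. The 14 sites had at most 5 reads each, and those of the wider list at most 6, which limits the levels given for them.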

Other observations

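Of the other clock genes, FBXW11, an F-box protein that marks PER proteins for degradation, held the most sites. In the GR library it had 0 of 4 reads methylated at 147778 bp and 0 of 6 at 64419 bp. In the BMAL1-CLOCK library it had 0 of 4 at 93331 bp and 0 of 5 at 70075 bp, and in the IgG control 1 of 4 at 278227 bp. All 5 distances met at position 171366482 of chromosome 5 in hg18, and since FBXW11 lies on the minus strand by RefSeq, all lay downstream of that start.

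Within 5 kb of a TSS lay 2 of 11 half-sites of the wider list in the GR library, at 2 further clock genes. Of all sites in that library 11.6% did. USP2, a deubiquitinase, had a TGTTCT site at 1484 bp with 0 of 4 reads methylated, and CSNK1E, a kinase that phosphorylates PER proteins, had one at 2953 bp with 0 of 4. NOCT, a rhythmic phosphatase gene listed as CCRN4L, had 1 E-box with 0 of 4 reads methylated at 381504 bp. None of the 7 E-boxes of the wider list lay within 5 kb, where 7.63% of all sites of the BMAL1-CLOCK library did. In the IgG control 1 of 8 half-sites of the wider list did, where 6.96% of all its sites did. The sites are too few for these counts to be a result about clock genes.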
